A study of Mus musculus with 12 samples.

Results

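Grin3a, Grik1, Lin7a, Brinp2, Rab33a, Tenm2 and Trpm1 are 7 mouse genes best known from neurons, sensory cells or synapses. They were taken from the 40800 genes of a count table by name, with no count filter, and were chosen by their fold changes, being higher in ventricles with Wnt gain of function than in control ventricles. The RNA sequencing libraries came from heart ventricles of mouse embryos at embryonic day 12.5, 6 labelled control and 6 labelled wnt gof. The labels do not give the allele, the Cre driver, the strain or the number of embryos in a library, and nothing ties a library to a separate animal, so the p-values below measure the spread between these libraries, which may be technical.

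The canonical Wnt pathway acts through beta-catenin, which enters the nucleus and joins TCF/LEF factors at target genes, among them the feedback inhibitor Axin2. Ionotropic glutamate receptors are ligand-gated cation channels of the NMDA, AMPA, kainate and delta classes, and in neurons they are held at the synapse by scaffold proteins such as the Lin7 and Dlg families. Teneurins are transmembrane adhesion proteins that bind latrophilins across the synaptic cleft. Many neuronal genes are kept low outside the nervous system by the repressor REST.

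Total counts ran from 10130088 to 17526325 in control libraries and from 12127026 to 17184662 in Wnt gain-of-function libraries. All 12 libraries carried the defining transcripts of cardiomyocytes, with a summed level of 12 markers of 37338 to 47608 CPM (counts scaled to TMM-normalised library size) in control and 35367 to 44816 CPM in the other group. One library lay at or near control level for most Wnt targets, against its label. In the library labelled Wnt gain of function replicate 5, Axin2 was at 3.77 CPM, inside the control range of 1.39 to 4.13 CPM, whereas the other 5 libraries of its group lay between 14.9 and 26.0 CPM. Nkd1, another feedback inhibitor, was at 4.14 CPM there, again within the control range of 2.58 to 7.17 CPM, while Notum (1.18 CPM, highest control library 0.874 CPM), Rnf43 (1.11 CPM, highest control library 0.694 CPM) and Sp5 (0.518 CPM, highest control library 0.247 CPM) lay above all controls and below the other libraries of its group. Whether the label or the strength of activation differs in this library cannot be told apart from the files. Values for the 7 genes are therefore given with and without this library. Of 12, 8, 7 and 9 tested markers of cardiomyocytes, endothelium, epicardium and the atrioventricular canal, edgeR called 0, where 0.501% of all tested genes were called. In the last of these lists, 3 of the 9 were higher and 1 lower at an unadjusted p under 0.05, DESeq2 called 1 (Msx2, higher), and without replicate 5 Msx2 rose (log2 fold change 2.04, edgeR adjusted p = 0.00229) and Isl1 fell (-2.42, 0.0280). With library sets (described below) as a blocking term, the endothelial marker Npr3 passed as higher (edgeR adjusted p = 0.0257). So did the canal markers Tbx3 (0.0400) and Cpne5 (0.0407), in a fit that called 2.0% of all genes. Summed levels in control and Wnt gain-of-function libraries were 730.1 to 816.4 and 805.1 to 870.8 CPM for endothelium. They were 273.3 to 415.9 and 308.8 to 398.8 CPM for epicardium, and 104.8 to 176.0 and 101.2 to 186.2 CPM for the canal. Of 7 Wnt targets edgeR called 3 higher (Axin2, Notum and Rnf43) and 0 lower. By Xist and the Y-linked gene Ddx3y, 2 control and 3 Wnt gain-of-function libraries were female, 4 and 2 were male, and Wnt gain-of-function replicate 6 carried both transcripts (230.7 CPM of Xist and 88.2 CPM of Ddx3y).

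The values that chose the 7 genes are those of the comparison between the groups, so fold changes of these genes are a description and no p-value of them is given. Grin3a, Grik1 and Lin7a stood between 7.14 and 11.96 times as high in the mean of the Wnt gain-of-function libraries as in the control mean, Brinp2 and Rab33a at 3.28 and 3.03 times, and Tenm2 at 1.85 times. Trpm1 was close to 0 in control libraries. Without replicate 5 the same ratios were 9.03, 14.3 and 8.38 for Grin3a, Grik1 and Lin7a, 3.69 and 3.38 for Brinp2 and Rab33a, and 1.95 for Tenm2. In bulk tissue, more RNA per cell and more cells that express a gene cannot be told apart. The low-count filter kept 6 of the 7 genes, all but Trpm1, and edgeR's quasi-likelihood test called all 6 higher, against 0.433% of the 14774 genes tested that were called higher and 0.0677% called lower. Without replicate 5 it again called 6 of 6 higher, against 1.0% of genes higher and 0.188% lower. Without Wnt gain-of-function replicate 3 it called only 4, against 44 of 14905 genes called higher. With any single one of the other 10 libraries left out it called 3, against 34 to 61 genes called higher. Without the low-count filter it called 5 of the 7 higher, against 0.35% of 27743 genes. With the 3 closest pairs of libraries summed, which leaves fewer libraries, 0 of the 6 were called, and 0 of all 15112 genes tested were called higher. Limma-voom called 2 of the 6, against 15 of 14774 genes called higher. All these calls come from the comparison that chose the genes.

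**Figure D1:**
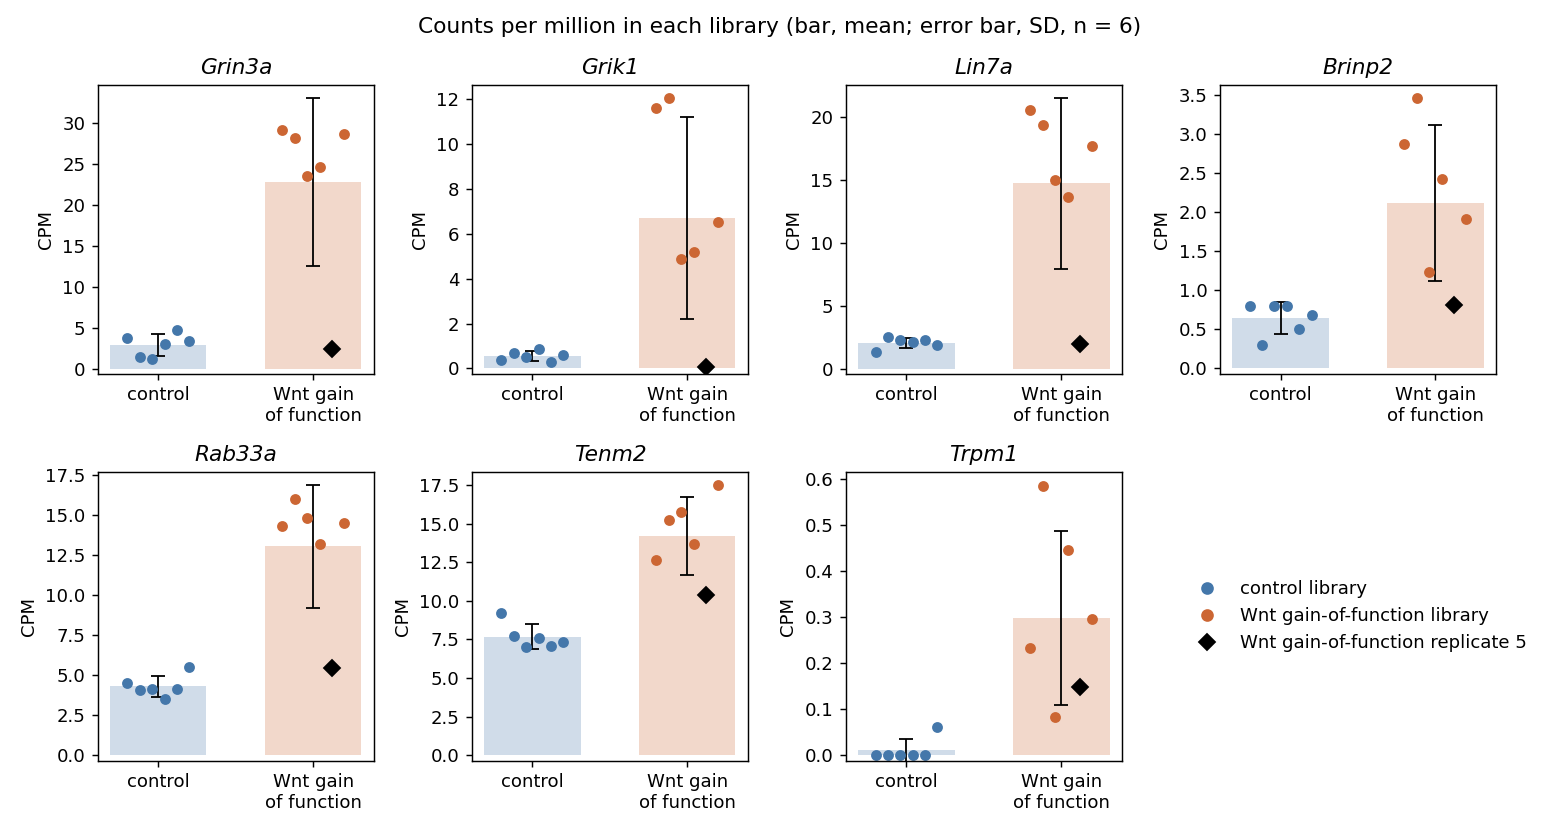
Level of the 7 genes in each library (y axis, CPM; x axis, group). Circles are single libraries, black diamonds the library labelled Wnt gain of function replicate 5, bars means and error bars SD (n = 6). The other 5 Wnt gain-of-function libraries lie above every control library for each of the 7 genes.

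Grin3a (ENSMUSG00000039579) encodes GluN3A, an NMDA receptor subunit that binds glycine and lowers the calcium permeability of the channel. Its CPM in control libraries had a lowest value of 1.26, a median of 3.28 and a highest value of 4.73, and in Wnt gain-of-function libraries 2.44, 26.4 and 29.2. The lowest of these was replicate 5, inside the control range, and the other 5 libraries lay between 23.6 and 29.2 CPM, a band with a coefficient of variation of 9.52%. The groups overlapped through that library alone. The fitted log2 fold change was 2.96 ± 0.515 (SE), and 3.19 ± 0.251 without it. Among controls, replicates 2 and 3 had the lowest values of Grin3a, 1.49 and 1.26 CPM, and the other 4 lay at 3.10 CPM or above. Over all genes, control replicates 2 and 3, Wnt gain-of-function replicates 1 and 2, and replicates 3 and 4 were unusually close pairs of libraries. The coefficient of variation over the 5 Wnt gain-of-function libraries, which include such pairs, may therefore be too low.

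Grik1 (ENSMUSG00000022935) encodes GluK1, a pore-forming kainate receptor subunit. It had 3 to 11 counts in each control library, with a lowest, median and highest level of 0.302, 0.568 and 0.874 CPM. These were, with Wnt gain of function, 0.0740, 5.83 and 12.02 CPM. Replicate 5 had 1 count, fewer than any control library, and the other 5 had between 59 and 205 counts. Among those 5 libraries Grik1 had a coefficient of variation of 43.7%, the largest of the 6 genes that passed the filter. Replicates 1 and 2 were at 11.6 and 12.02 CPM, replicates 3 and 4 at 4.85 and 5.16 CPM, and replicate 6 at 6.50 CPM. Replicates 1 and 2, and likewise 3 and 4, are the close pairs named above, so their like values may not be independent. The fitted log2 fold change was 3.55 ± 0.694 (SE) over all libraries and 3.81 ± 0.326 without replicate 5.

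Lin7a (ENSMUSG00000019906) encodes a PDZ-domain scaffold that binds Cask and holds receptors and channels at synaptic and epithelial membranes. Its lowest, median and highest levels were 1.33, 2.19 and 2.48 CPM in control libraries and 2.00, 16.3 and 20.6 CPM in the Wnt gain-of-function group. Replicate 5 was again the lowest of its group and lay inside the control range, and the next lowest library, replicate 4, was at 13.6 CPM. The fitted log2 fold change was 2.84 ± 0.422 (SE), and 3.06 ± 0.168 without replicate 5.

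Rab33a (ENSMUSG00000031104) encodes a small GTPase of Golgi-derived vesicles that is found in neurons and immune cells. Control libraries ran from 3.49 over a median of 4.13 to 5.51 CPM, and Wnt gain-of-function libraries from 5.48 over 14.4 to 16.0 CPM. Replicate 5, at 5.48 CPM, was just under the highest control library, replicate 6. The other 5 libraries, which include the close pairs named above, stood together at 13.2 to 16.0 CPM, with a coefficient of variation of 6.96%. The fitted log2 fold change was 1.59 ± 0.214 (SE), or 1.75 ± 0.129 without replicate 5. Rab33a is X-linked, and in controls its level was 3.49 and 4.13 CPM in the 2 Xist-positive libraries against 4.07 to 5.51 CPM in the others.

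Brinp2 (ENSMUSG00000004031) encodes a secreted protein of the BMP/retinoic acid-inducible neural-specific family. It was low, with 3 to 14 counts in control libraries (0.298 to 0.804 CPM, median 0.737) and 11 to 59 counts in Wnt gain-of-function libraries (0.814 to 3.46 CPM, median 2.17). The groups did not overlap, but replicate 5, with 11 counts, was at 0.814 CPM, just above control replicate 3, which had 14 counts in a deeper library (0.804 CPM). Its fitted log2 fold change was 1.68 ± 0.346 (SE), and 1.84 ± 0.301 without replicate 5.

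Tenm2 (ENSMUSG00000049336) encodes teneurin-2, a latrophilin-binding adhesion protein. It was expressed in every library, from 7.01 over 7.49 to 9.20 CPM in control libraries and from 10.4 over 14.5 to 17.5 CPM in the other group. This was the smallest ratio of the 7 genes, yet the groups did not overlap even with replicate 5, which was again the lowest of its group. Its coefficients of variation were 10.6% in control and 17.8% in Wnt gain-of-function libraries, the lowest of the 7 genes in both groups, but without replicate 5 the latter was 12.5%, above those of Rab33a and Grin3a. The fitted log2 fold change was 0.89 ± 0.131 (SE), and 0.97 ± 0.119 without replicate 5.

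Trpm1 (ENSMUSG00000030523) encodes a cation channel of retinal ON bipolar cells and melanocytes. Control replicates 1 to 5 had 0 counts and control replicate 6 had 1, whereas Wnt gain-of-function replicates 1 to 6 had 3, 10, 1, 7, 2 and 4 counts. Each Wnt gain-of-function library was above the highest control library in CPM, on 27 counts in all against 1, but replicate 3 and control replicate 6 had 1 count each and were set apart by library size alone. As a description of the difference for which Trpm1 was chosen, the ratio of these totals, scaled by library size, was 24.7, with an exact 95% interval from 4.06 to 1009.5 that covers counting error only. Replicate 5 was not the lowest here, replicate 3 was. Mir211, the microRNA gene inside Trpm1, was listed at 0 counts in all 12 libraries.

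Replicate 5 was the lowest library of its group for 6 of the 7 genes, all but Trpm1, and lay below the control mean for Grin3a, Grik1 and Lin7a. When it is set aside, the groups did not overlap for any of the 7 genes. With it they did not overlap for 3, Brinp2, Tenm2 and Trpm1. Over the 14774 tested genes, which do not include Trpm1, 1.36% did not overlap and were higher without replicate 5, and 0.298% with it, while 0.162% did not overlap and were lower. These counts come from the comparison that chose the genes, and nothing is read from them.

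**Figure D2:**
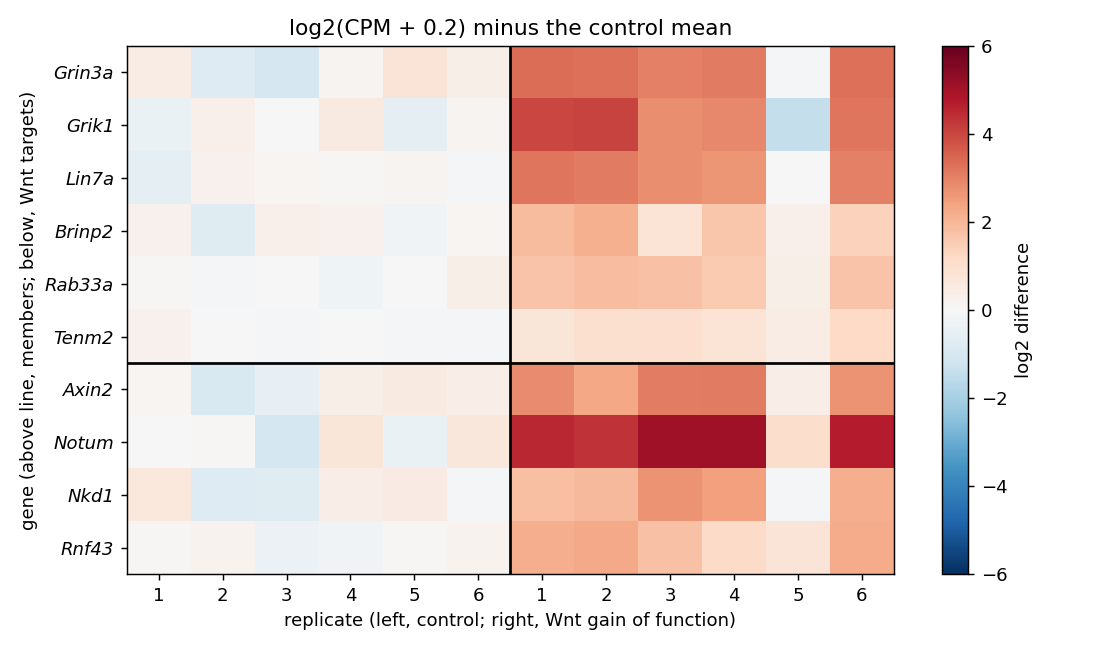
Difference of log2(CPM + 0.2) from the control mean (colour scale, log2 units) for the 6 members with enough counts and for 4 Wnt target genes (y axis) in each library (x axis, replicates 1 to 6 of control, then of Wnt gain of function). Wnt gain-of-function replicate 5 is pale for most genes and on the blue side for Grik1, where it had 1 count. The other 5 libraries of its group are on the red side for every gene, but pale for Tenm2 and, in replicate 3, for Brinp2.

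After the group means were removed, the libraries were clustered by their correlations into 3 sets. That number was chosen, and removing the group means favours sets that mix the groups. Each set held 2 control and 2 Wnt gain-of-function libraries, and levels of the 7 genes were compared within the sets. In the set of control replicates 2 and 3 and Wnt gain-of-function replicates 1 and 2, in which every library was male, the ratio of means was 20.9 for Grin3a, 19.5 for Grik1, 8.47 for Lin7a, 5.75 for Brinp2, 3.69 for Rab33a and 1.89 for Tenm2. In the set of control replicates 4 and 5 and Wnt gain-of-function replicates 3 and 4, all female, it was 6.16, 8.52, 6.41, 2.82, 3.67 and 2.01 in the same order. Rab33a and Tenm2 had close ratios in these 2 sets, and Grin3a, Grik1, Lin7a and Brinp2 had a larger one in the first. Each value rests on 2 libraries a side, and sex and library set cannot be told apart here. Control replicates 2 and 3, Wnt gain-of-function replicates 1 and 2, and replicates 3 and 4 were also unusually close pairs. The mean chi-square between the counts of such a pair was 3.07 to 3.32, against at least 12.8 for all other pairs. The 2 libraries of such a side may thus not be independent. In the third set, which holds replicate 5, the ratios were 4.29, 6.76, 6.19, 1.85, 1.99 and 1.68 in that order, and the groups overlapped for Grin3a, Grik1 and Rab33a.

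Per kilobase of exon, in GENCODE M21 gene models, Rab33a was the most abundant of the 7 genes in control libraries, at 3.72 CPM per kb. Tenm2 (0.668), Lin7a (0.622), Grin3a (0.242), Grik1 (0.0833), Brinp2 (0.0737) and Trpm1 (0.000699 CPM per kb) followed. In Wnt gain-of-function libraries the order of mean levels was Rab33a (11.3), Lin7a (4.44), Grin3a (1.86), Tenm2 (1.24), Grik1 (0.996), Brinp2 (0.242) and Trpm1 (0.0202 CPM per kb). Tenm2 thus ranked above Lin7a and Grin3a in control libraries and below both in the other group. For scale, Lin7c, the widely expressed member of the Lin7 family, was at 36.1 CPM per kb in control libraries.

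Promoter windows of RefSeq (GRCm38.p6, 250 bases before to 50 bases after a transcript start) were found for 4 of the 7 genes, Lin7a and Trpm1 with 2 windows each and Rab33a and Tenm2 with 1. They were searched on both strands for the TCF/LEF core (CTTTG followed by AA or AT, or by TA or TT), for the E-box CACGTG, and for TTCAGCACC, the left part of the RE1 element that REST binds. The motifs do not overlap in these windows. The windows that held a match are shown because they hold the searched letters, with matches in capitals, together with the window of Rab33a, which held none.
Lin7a, chr10:107272144-107272443, plus strand: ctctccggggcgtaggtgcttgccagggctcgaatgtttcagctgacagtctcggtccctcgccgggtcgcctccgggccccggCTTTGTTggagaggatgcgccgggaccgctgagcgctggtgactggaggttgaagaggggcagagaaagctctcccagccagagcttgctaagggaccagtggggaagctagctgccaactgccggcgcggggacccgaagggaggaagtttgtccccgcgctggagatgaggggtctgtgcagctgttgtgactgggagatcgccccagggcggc
Trpm1, chr7:64185209-64185508, plus strand: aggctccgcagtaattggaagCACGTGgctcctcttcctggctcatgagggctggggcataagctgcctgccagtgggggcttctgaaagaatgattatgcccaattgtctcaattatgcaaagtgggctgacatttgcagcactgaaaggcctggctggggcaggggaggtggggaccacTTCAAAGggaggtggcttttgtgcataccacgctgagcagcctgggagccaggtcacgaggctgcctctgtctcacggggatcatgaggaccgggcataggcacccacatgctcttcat
Rab33a, chrX:48519035-48519334, plus strand: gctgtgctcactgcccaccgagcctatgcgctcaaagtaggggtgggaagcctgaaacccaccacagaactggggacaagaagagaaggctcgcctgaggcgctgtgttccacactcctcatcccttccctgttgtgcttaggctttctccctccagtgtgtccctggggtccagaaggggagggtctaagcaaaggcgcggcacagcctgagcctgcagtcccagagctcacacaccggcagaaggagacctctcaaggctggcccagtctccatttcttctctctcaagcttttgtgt
The capitals in Lin7a mark CTTTGTT, which begins 166 bases before the transcript start. In Trpm1 they mark the E-box, 229 bases before the start, and a TCF/LEF core on the other strand, TTCAAAG, 69 bases before it. Over all 32817 windows of this length, 16.9% held a TCF/LEF core and 7.15% the E-box, so a match in 2 of 6 windows is a description of these letters only. The left part of RE1 was not among the letters of the 6 windows, and it occurred in 0.372% of all windows.

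The other genes of each family were compared next, as a description beside the 7 genes. Over 8 lists of glutamate receptors, their scaffold, Lin7 partners, Brinp, Rab, teneurin, Trp and presynaptic genes, 73 other genes were tested and 0 were called by edgeR in either direction, where 0.501% of all tested genes were called. DESeq2 and limma-voom also called 0 of them, against 1.08% and 0.149% of all genes. At an unadjusted p under 0.05, 6 of the 73 were higher and 5 lower, 15.1% in all against 6.3% of all tested genes (3.73% higher and 2.57% lower). Their median log2 fold change was 0.01, beside 0.00 over all tested genes, and 38 lay above 0. The lists were drawn up with earlier results of these data known.

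**Figure D3:**
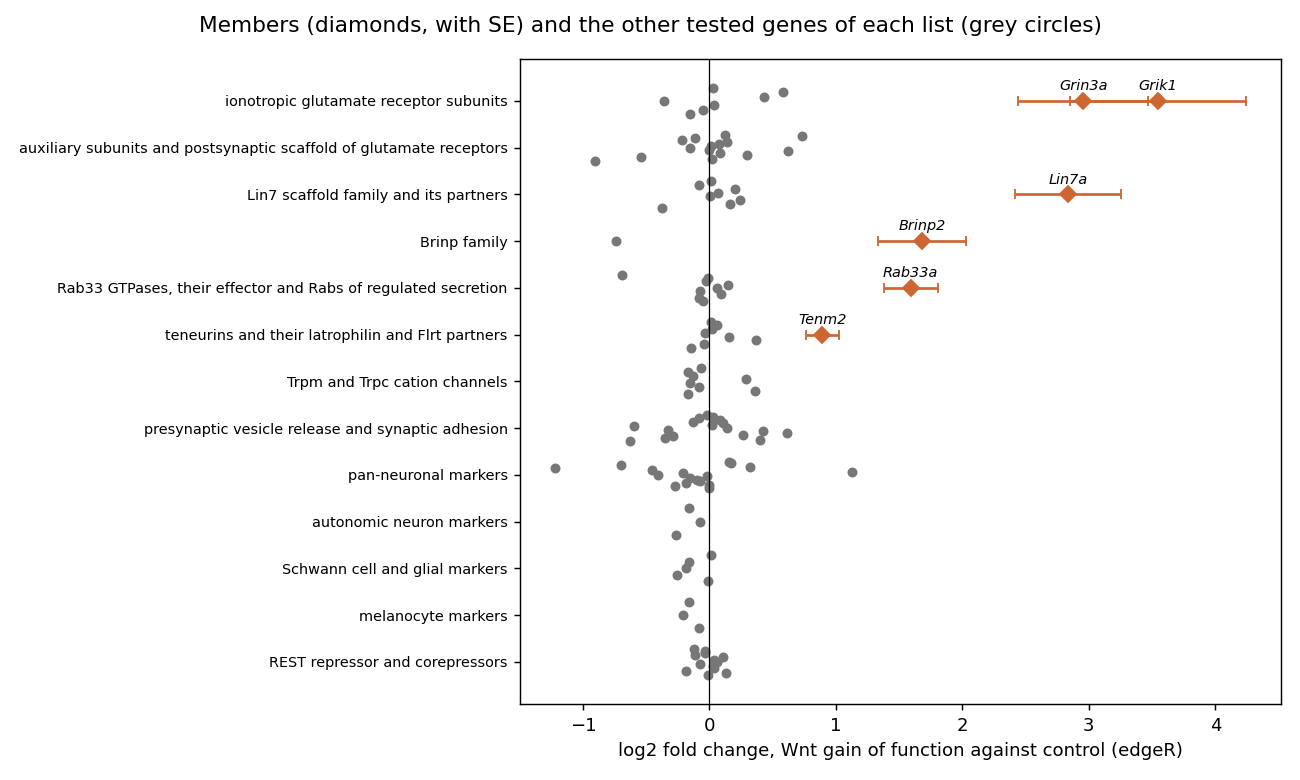
Log2 fold change, Wnt gain of function against control (x axis), of each tested gene in 13 lists (y axis, with points spread vertically for legibility only). Diamonds are the 6 members that passed the count filter, with SE, and grey circles the other genes of the list, which lie between -1.22 and 1.13 while members reach 3.55.

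Among ionotropic glutamate receptor subunits, 7 of 16 others were expressed enough to test and 0 passed in either direction. Gria3, an AMPA receptor subunit, was the most abundant by CPM, at 31.6 ± 3.23 CPM (SD, n = 6) in control libraries and 32.5 ± 4.46 CPM in the other group, with a log2 fold change of 0.04. Gria1 had a log2 fold change of -0.15. The kainate receptor subunits next to Grik1 had log2 differences of 0.43 (Grik2, edgeR adjusted p = 0.822) and 0.58 (Grik3, 0.953). Grin1 encodes the obligatory subunit with which GluN3A assembles into NMDA receptors. It had 2 counts over the 6 control and 3 counts over the 6 Wnt gain-of-function libraries, against 222 and 1953 counts of Grin3a. Grin2a, Grin2b, Grin2c and Grin2d had between 17 and 53 counts over all control libraries and between 16 and 65 over all Wnt gain-of-function libraries, and did not pass the filter.

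Of 25 auxiliary and scaffold genes of glutamate receptors, 15 were tested and 0 passed, with a median log2 fold change of 0.02. Homer2, Homer1 and Dlg1, the most abundant of them by CPM, had log2 fold changes of 0.07, 0.01 and 0.02. Shank1, a postsynaptic scaffold, averaged 2.86 ± 0.468 CPM (SD) in control libraries and 4.75 ± 1.54 CPM in the other group (log2 fold change 0.74 ± 0.225 (SE), edgeR adjusted p = 0.298). Without replicate 5, in which it was at 2.37 CPM, Shank1 passed (edgeR adjusted p = 0.0308), and it was the only one of these families' other genes that did. Dlg2 and Dlg3 had log2 fold changes of -0.54 and 0.29.

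Of the Lin7 partners, 8 were tested and 0 passed. Lin7c averaged 163.0 ± 27.1 CPM (SD) in control libraries and 163.4 ± 17.0 CPM in the Wnt gain-of-function group, and its log2 fold change was 0.00. Cask, the membrane-associated kinase-like scaffold that binds Lin7 proteins, had a log2 difference of 0.24 ± 0.0924 (SE; edgeR adjusted p = 0.534), Apba1 of -0.38 and Mpp5 of -0.09. Brinp1, the only other Brinp gene tested, had a log2 fold change opposite in sign to that of Brinp2, -0.74 ± 0.286 (SE; edgeR adjusted p = 0.549). It passed as lower once library set was a blocking term (edgeR adjusted p = 0.0424), a fit in which 2.0% of all genes were called. Brinp3 had 18 and 37 counts in all and was not tested.

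Rab33b, the paralog of Rab33a, averaged 35.1 ± 4.91 CPM (SD) in control libraries and 33.4 ± 3.44 CPM in the Wnt gain-of-function group (edgeR adjusted p = 0.999), with a log2 fold change of -0.07 ± 0.103 (SE). Their shared effector of autophagy, Atg16l1, had a log2 fold change of -0.05, and 0 of the 9 tested genes of this list passed, with Rab6a at -0.01, Rab3b at 0.15 and Rab6b at -0.69. The other teneurins tested, Tenm3 and Tenm4, had log2 fold changes of 0.06 and 0.01. Of the teneurin partners, the latrophilin Adgrl3 had a log2 difference of 0.37 ± 0.106 (SE; edgeR adjusted p = 0.243) and passed as higher once library set was a blocking term (0.0402). Adgrl1, Adgrl2, Flrt2 and Flrt3 had log2 fold changes of -0.14, -0.04, -0.03 and 0.02. Tenm1 was listed at 0 counts in control libraries and had 7 counts over the Wnt gain-of-function libraries.

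Of the Trpm and Trpc channels, 8 were tested and 0 passed. Trpm7, the most abundant by CPM, averaged 273.0 ± 34.9 CPM (SD) in control libraries and 261.1 ± 27.7 CPM in the Wnt gain-of-function group (log2 fold change -0.06), and Trpm3 and Trpc1 had log2 fold changes of 0.29 and -0.17. Of 17 tested presynaptic and synaptic adhesion genes 0 passed. The neurexin Nrxn3 averaged 8.63 ± 2.08 CPM (SD) in control libraries and 13.2 ± 2.67 CPM in the Wnt gain-of-function group. Its log2 fold change was 0.61 ± 0.170 (SE; edgeR adjusted p = 0.211), and it passed as higher once library set was a blocking term (0.0425) or Y-linked expression a covariate (0.0385). The complexins Cplx2 and Cplx1 had log2 fold changes of 0.40 and -0.62, and the vesicle genes Sv2a and Vamp2 of 0.11 and -0.02.

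Markers of cells that carry these genes in other tissues were compared in the same fit, as a description of their levels. The part of such cells in the values of the 7 genes was not tested. Of 58 pan-neuronal, autonomic, Schwann cell, glial and melanocyte markers, 28 were tested and 0 were called by edgeR, DESeq2 or limma-voom, where edgeR called 0.501% of all tested genes. At an unadjusted p under 0.05, 1 was higher and 2 were lower, 10.7% in all against 6.3% of all tested genes, and 5 of the 28 had a log2 fold change above 0, against 50.4% of all tested genes. The summed level of the 24 pan-neuronal markers ran from 118.8 to 171.4 CPM (median 156.4) in control and from 123.6 to 163.9 CPM (median 142.7) in Wnt gain-of-function libraries, with replicate 5 at 142.5 CPM. No pan-neuronal marker was at 0 counts in every library. Stmn2, a growth-cone protein of neurons, averaged 6.76 ± 2.81 CPM (SD) in control libraries and 2.90 ± 1.91 CPM in the other group (edgeR adjusted p = 0.378), with a log2 fold change of -1.22 ± 0.396 (SE). It passed as lower without replicate 5 (edgeR adjusted p = 0.0286) and once library set was a blocking term (0.0020). Snap25 had a log2 fold change of -0.46, Scg2 of 1.13 (adjusted p = 0.377), and Gap43, Uchl1 and Nefl, the most abundant by CPM in control libraries, of -0.09, 0.16 and -0.41. Tubb3, which was above Nefl in the Wnt gain-of-function group, had a log2 fold change of 0.17.

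**Figure D4:**
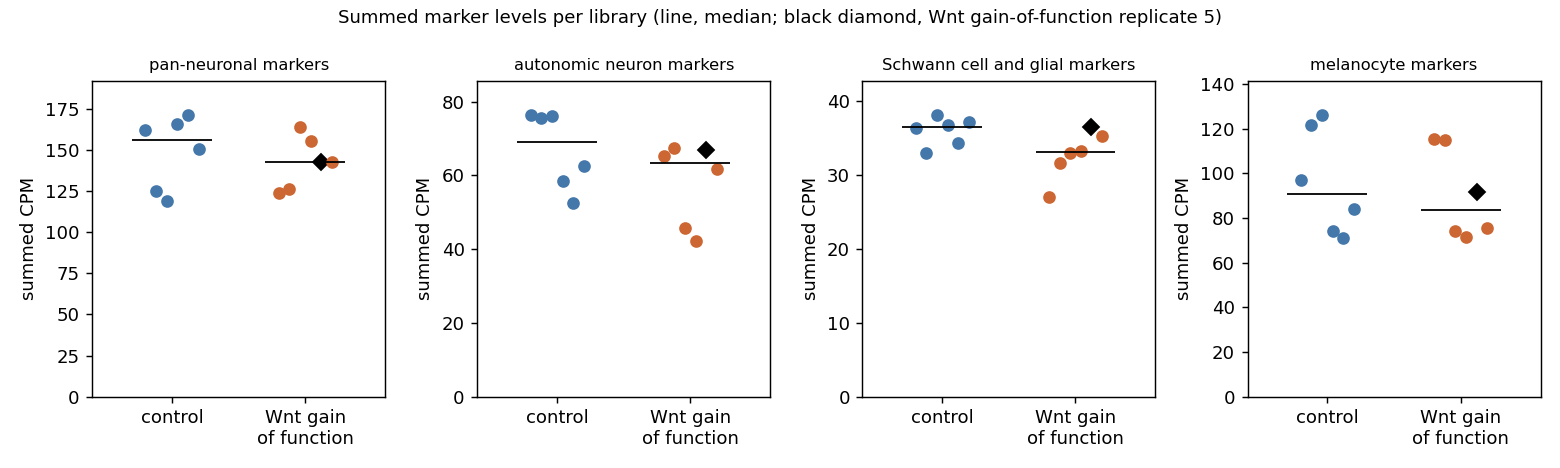
Summed CPM (y axis) of the markers in 4 lists in each library (circles; black diamonds, the library labelled Wnt gain of function replicate 5; lines, medians of 6). The control and Wnt gain-of-function libraries cover overlapping ranges in each panel, for pan-neuronal markers 118.8 to 171.4 and 123.6 to 163.9 CPM.

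Of 14 autonomic neuron markers only Gata3, Slc18a2 and Ngfr were expressed enough to test, with log2 fold changes of -0.26, -0.16 and -0.07, and Slc18a2 gave most of the list's summed level, 52.5 to 76.4 CPM in control libraries and 42.1 to 67.5 CPM in the other group. These defining markers were low and had fewer counts in the Wnt gain-of-function libraries: Dbh, which makes noradrenaline, had 40 counts against 64 in control, Th 10 against 24 and Chrnb4 16 against 40, each over 6 libraries and untested. Of 10 Schwann cell and glial markers 5 were tested and 0 passed. Their sum was 33.0 to 38.2 and 27.1 to 36.6 CPM, with log2 fold changes of -0.16 for Mbp and -0.26 for Erbb3, and Sox10 had 6 and 7 counts.

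The summed level of the markers of melanocytes, a cell type known for Trpm1, ran from 70.9 to 126.3 CPM in control libraries and from 71.4 to 115.5 CPM in the Wnt gain-of-function group, most of it Mitf, a factor with forms expressed in many tissues (log2 fold change -0.08). The pigment genes had few counts. Dct had 47 in control and 33 in Wnt gain-of-function libraries, Tyr 35 and 49, and Tyrp1 and Oca2 were listed at 0 in all 12 libraries. Mlana and Slc24a5 had log2 fold changes of -0.21 and -0.16 and did not pass.

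Rest, which encodes the repressor of neuronal genes, averaged 114.2 ± 16.4 CPM (SD) in control libraries and 111.6 ± 21.4 CPM in the other group, a log2 difference of -0.03 (edgeR adjusted p = 0.999). All 13 genes of this list, Rest with its corepressors and partners, were tested. In edgeR and DESeq2 0 passed, where 0.501% and 1.08% of all tested genes were called. Their log2 fold changes lay between -0.18 (Hdac1) and 0.13 (Ehmt2). In edgeR 0 of them had an unadjusted p under 0.05, against 6.3% of all tested genes. With 13 genes, nothing is read from these counts.

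The genes whose log2 CPM over the 12 libraries was most like the mean standardised profile of the 7 genes were Hs3st3b1, a heparan sulfate sulfotransferase (Pearson r = 0.990), Esyt3, an extended synaptotagmin of membrane contact sites (0.980), Dpp6, an auxiliary subunit of Kv4 potassium channels known from neurons (0.975), the chaperone Hspa2 (0.973) and the Wnt antagonist Dkk2 (0.970), while Axin2 ranked at position 34 (0.941). These r values are a description over libraries that share the group difference. Esyt3 was at a mean of 0.916 CPM in control libraries and 18.8 CPM in the other group, and Dpp6 at 0.908 and 13.4 CPM. Both were near the control level in replicate 5, at 1.11 and 0.962 CPM. After the group means were removed, Hs3st3b1 (r = 0.971), Dpysl3 (0.925), Esyt3 (0.924), Dpp6 (0.915) and Cd28 (0.913) were most alike. These likenesses rested largely on replicate 5: over the other 11 libraries they were 0.674 for Hs3st3b1, 0.569 for Esyt3, 0.501 for Cd28, 0.415 for Dpp6 and 0.129 for Dpysl3, and for Axin2 the value was -0.093.

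In the authors' deposited table the log2 fold changes were 2.78 for Grin3a, 2.73 for Grik1, 2.55 for Lin7a, 1.56 for Brinp2, 1.52 for Rab33a, 0.88 for Tenm2 and 2.66 for Trpm1. They come from the same 12 libraries. Grik1 differed most from the value fitted here with edgeR (3.55), and its confidence limits in the authors' deposited table were also the widest of the 7, from 0.0433 to 5.41. Limma-voom on the same counts gave 2.73 for Grik1, 2.78 for Grin3a, 2.56 for Lin7a, 1.56 for Brinp2, 1.52 for Rab33a and 0.88 for Tenm2, close to the authors' values.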

How the data were processed

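Ventricles of 12 mouse libraries were analysed. Read counts per Ensembl gene were deposited by the authors, and the submitters' processing notes name Subread, featureCounts and edgeR. Versions, settings, genome build and annotation: not given in the sources used here. The 622 repeated rows of the count table had identical counts and were left out. GC percent and transcript number per gene stand in the deposited table as annotation and were not used. The authors' deposited comparison table holds log2 fold changes, log2 CPM, p-values and a log-odds score, per the file headers, whose names are those of limma output. Only its log2 fold changes and limits were used. The authors' fold column there was not used.

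Groups follow the genotype labels and replicate numbers the titles. In R 4.3.3, edgeR 4.0.16 was run with filterByExpr (minimum count 10), TMM scaling and the robust quasi-likelihood test, with group as the only term, on all 14774 genes that passed. P-values were adjusted by Benjamini-Hochberg over all of them and called under 0.05. The SE was derived from the F statistic. Alternatives used DESeq2 1.42.0, limma 3.58.1 (voom), other scalings, filters, blocks and left-out libraries. The test was also run on simulated counts of independent libraries, without close pairs or a library like replicate 5. That run therefore does not show how the test behaves with such libraries. Mean chi-square values between libraries were 3.07 to 3.32 for 3 pairs of the same group (control 2 and 3, Wnt gain of function 1 and 2, 3 and 4) and at least 12.8 for all others. These pairs are closer than other replicates but differ by more than sampling noise and were kept as separate libraries. Library sets came from average-linkage clustering, into 3, of correlations between deviations from the group means.

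The 7 genes and the 18 gene lists were chosen with earlier results of these data known. Of 235 listed symbols, 2 were not found. Genes named from the lists are those called, up to 3 with the lowest p and up to 3 with the highest mean CPM. Some genes this rule names are not reported here. Named after their values were seen, or for their role, are Grin1, the Grin2 genes, the other teneurins, Brinp3, Apba2, Ppp3r2, Nkd1, Sp5, the pigment genes, Sox10, Ehmt2 and the low autonomic markers. Exon lengths and overlapping genes come from GENCODE M21, which may differ from the authors' annotation.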

Additional observations from a re-analysis of the deposited data

Results flagged for a closer look

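Of 52 groups of 6 values checked (the 7 genes, Axin2 and the 18 list sums in each group), 7 had an end value far from the rest for a group of that size. Chance gives about 1 in 20 only for independent, normally distributed values. CPM values need not be normal and the groups share libraries, so nothing is read from this number. In 4 of the 7 groups the end value was the lowest and belonged to the library labelled Wnt gain of function replicate 5. It was at 2.44 CPM for Grin3a, with the next library at 23.6 CPM, at 2.00 CPM for Lin7a (next 13.6 CPM), at 5.48 CPM for Rab33a (next 13.2 CPM), and at 131.7 CPM for the sum of the Wnt target genes (next 255.1 CPM). In control libraries the highest value stood apart for Tenm2 (9.20 CPM in replicate 1, next 7.74 CPM), for the sum of the Wnt target genes (158.9 CPM in replicate 1, next 117.3 CPM) and for Trpm1 (0.0619 CPM in replicate 6, which is 1 count, with the others at 0).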

How the results depend on the processing

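The log2 fold changes of the 6 members tested kept their sign and moved by less than the spread between libraries under all 22 alternatives (21 for Grik1 and Brinp2, which the stricter filter left out). They ranged from 2.74 to 3.19 for Grin3a, 2.73 to 3.81 for Grik1, 2.56 to 3.06 for Lin7a, 1.48 to 1.84 for Brinp2, 1.502 to 1.75 for Rab33a and 0.82 to 0.97 for Tenm2. How many of the members were called was less stable. It was 6 in edgeR, 3 with the replicate number as a block, 2 in limma-voom, 0 with the closest library pairs summed, and 3 to 6 with 1 library left out. Of all genes tested, 64, 47, 15 and 0 were called higher in the same order, and 34 to 149 with 1 library left out. Rab33a and Tenm2 were called in 21 of 22 alternatives, Lin7a in 19, Brinp2 in 8 and Grin3a and Grik1 in 6. All these calls re-use the comparison that chose the genes, so they describe the dependence on processing and are no support for the difference. The replicate numbers did not pair the libraries: same-numbered libraries had correlations of their deviations from -0.377 to 0.463.

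Over all genes, 64 were called higher and 10 lower. These counts were 195 and 100 with library set as a blocking term, 110 and 20 with Y-linked expression as a covariate, 0 and 1 with the closest pairs summed, and 135 and 25 in DESeq2. Higher genes numbered 15 in limma-voom and 97 without a low-count filter. With 1 library left out they ran from 34 to 149 and lower genes from 4 to 28, the highest of each without Wnt gain-of-function replicate 5. Of the list genes other than the members, 3 were called higher, all Wnt targets (Axin2, Notum and Rnf43), and 0 lower. With the library sets as a block these were 9 and 2. Higher list genes numbered 5 with the Y-linked covariate, 0 with summed pairs, 6 in DESeq2, 1 in limma-voom and 3 to 8 with 1 library left out, and lower ones 0 to 2. The sets and pairs were found from these same libraries, so p-values with them as a block can be too small. Depth limits Trpm1, Brinp2 and the low markers, which rest on few counts.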

Other observations

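Ppp3r2, which encodes a calcineurin regulatory subunit known from testis, lies inside the span of Grin3a on the same strand in GENCODE M21, with 0 shared exon bases. It had 9 counts over the control libraries (0 to 4 each) and 77 over the Wnt gain-of-function libraries (2 to 21 each), with 2 counts in replicate 5 and at least 4 in the others. It did not pass the count filter and was not tested. Gm12459, a processed pseudogene in the same span, had 15 and 35 counts. Apba2, which encodes a neuronal adaptor that is a relative of the Lin7 partner Apba1, had 10 counts over the control libraries and 42 over the Wnt gain-of-function libraries, with 0 in replicate 5, and was not tested. These genes were named after their values were seen.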
